A study of Homo sapiens with 18 samples.

Results

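The 5 host transcripts of microRNAs, MIR222HG, MIR17HG, MIR155HG, MIR22HG and MIR181A1HG, were followed in RNA-seq of 3 acute myeloid leukaemia cell lines given an inhibitor of the phosphatase SHP2. They were found by symbol, as 5 of the 40184 Ensembl gene IDs in the deposited table. The set was chosen because the level of MIR222HG in MV4-11 was among the largest falls with the inhibitor there. For that reason the members' values in the MV4-11 comparison are a description with no test. Levels and changes in the other lines were measured in other cultures, and were tested for the members that passed a filter on low values. The fit took its estimate of spread from all samples, MV4-11 included, and the members were chosen with earlier results of these data known.

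The lines were Molm-14 and MV4-11, both labelled FLT3-ITD (FLT3, a receptor tyrosine kinase, with an internal tandem duplication), and SKNO-1, labelled KIT N822K (a substitution in another receptor tyrosine kinase). SKNO-1 alone was grown with human GM-CSF at 10 ng/mL, so line and growth factor cannot be told apart. Each line received the vehicle DMSO or 500 nM RMC-4550, an allosteric inhibitor that holds SHP2 closed, for 24 h. There were 3 libraries in each of the 6 groups, which the labels call biological replicates, and each line is a single established line. SHP2, encoded by PTPN11, passes the signals of such receptors on to RAS and so to ERK.

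A microRNA host gene is transcribed as a long RNA from which the enzyme DROSHA cuts hairpins. DICER1 then trims each hairpin to a short mature microRNA, which pairs with messenger RNAs through its seed, the bases from position 2 to position 8. Where the hairpins lie in an intron, what remains is the spliced, polyadenylated host transcript. Where they lie in an exon, the cut is within that transcript itself. The RNA sequenced here was selected by its poly(A) tail, so the host transcripts were measured and the mature microRNAs were not. In bulk RNA, fewer cells of a type and less RNA per cell cannot be told apart.

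A selection of the mature sequences encoded by the 4 hosts with measurable transcripts follows from RefSeq (GRCh38.p14), 5′ to 3′, with the seed in capitals, to show which share a seed. Other arms and the miR-18a and miR-92a sequences of MIR17HG are not shown. In MIR222HG, miR-221-3p and miR-222-3p share a seed, and 11 of 21 positions counted from the 5′ end are identical. In MIR17HG, miR-17-5p and miR-20a-5p share a seed and 21 of 23 positions, and miR-19a-3p and miR-19b-3p share another seed and 22 of 23 positions.
hsa-miR-221-3p: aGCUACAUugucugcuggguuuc
hsa-miR-222-3p: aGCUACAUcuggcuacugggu
hsa-miR-17-5p: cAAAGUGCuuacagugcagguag
hsa-miR-20a-5p: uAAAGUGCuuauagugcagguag
hsa-miR-19a-3p: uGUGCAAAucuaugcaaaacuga
hsa-miR-19b-3p: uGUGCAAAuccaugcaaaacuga
hsa-miR-155-5p: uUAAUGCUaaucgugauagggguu
hsa-miR-22-3p: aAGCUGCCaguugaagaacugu

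By GENCODE 29 (GRCh38), MIR222HG (ENSG00000270069) is a lincRNA on chromosome X, from 45745211 to 45770274 on the minus strand. The hairpins of MIR221 and MIR222 lie in the intron of the shorter of its 2 transcripts. The longest transcript ends 1894 bases from the start of the gene, and MIR222 begins at 23150. Values were given per gene, so these transcripts cannot be told apart. MIR17HG (ENSG00000215417) is on chromosome 13, from 91347820 to 91354579 on the plus strand, and its 6 hairpins lie within an exon in 2 of its 3 transcripts. MIR155HG (ENSG00000234883), a lincRNA with 1 transcript, is on chromosome 21, from 25561909 to 25575168 on the plus strand, and holds its microRNA in an exon. MIR22HG (ENSG00000186594), a lincRNA with 19 transcripts, is on chromosome 17, from 1711493 to 1717174 on the minus strand. Its microRNA is exonic in all 19 transcripts. MIR181A1HG (ENSG00000229989), a lincRNA, is on chromosome 1, from 198807493 to 198937429 on the minus strand, with both hairpins in an intron beyond the end of its longest transcript.

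**Figure D1:**
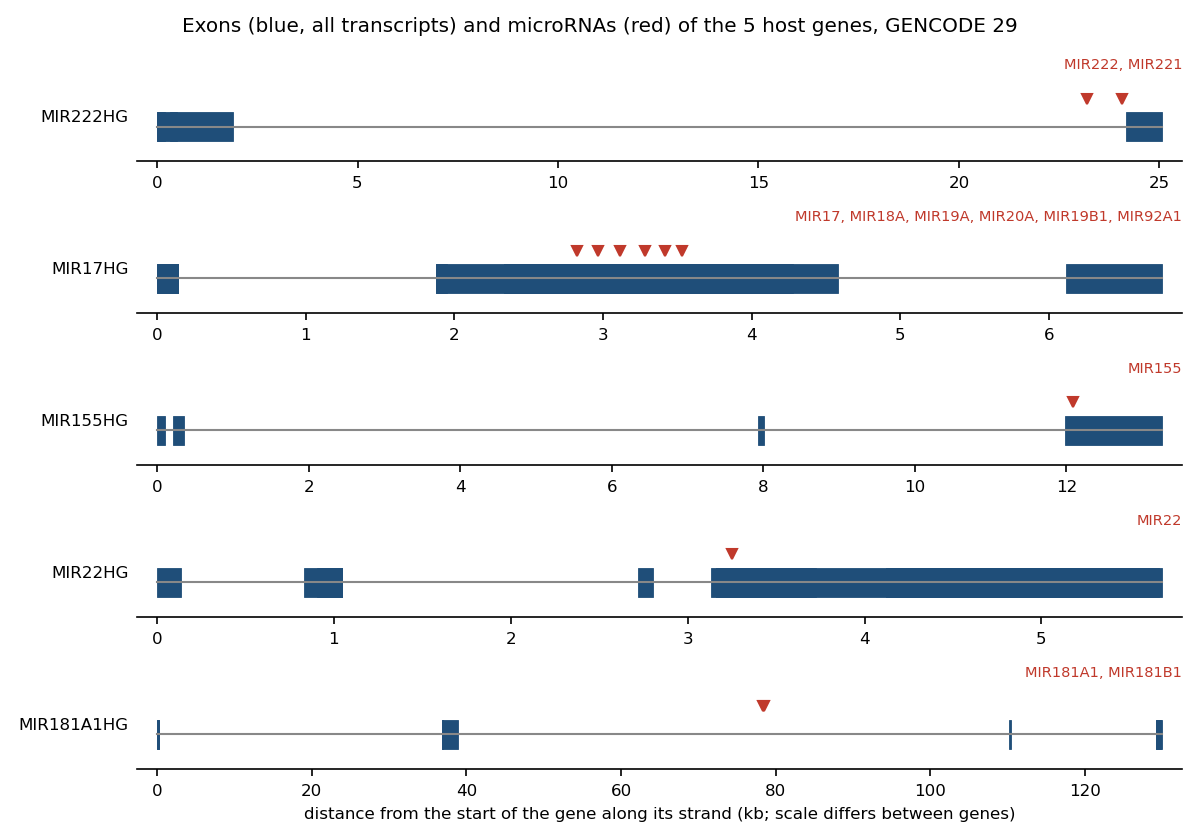
Maps of the 5 host genes by GENCODE 29, with distance from the start of the gene along its strand in kilobases (the scale differs between genes), exons of all transcripts as blue boxes and microRNAs as red triangles. The microRNAs of MIR222HG and MIR181A1HG lie between exons, and those of MIR17HG, MIR155HG and MIR22HG lie over exons.

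Read totals ran from 17434810 to 19959917 per library. Mitochondrial genes took 5.06% to 7.004% of reads in 14 libraries and 10.5% to 14.99% in 4: Molm-14 with RMC-4550 replicate 2, MV4-11 with DMSO replicates 1 and 3, and MV4-11 with RMC-4550 replicate 1. Levels are given in CPM, reads brought to a common library size with the deposited scaling. Myeloid genes CD33, SPI1, CSF3R, LYZ and ITGAM were detected in all groups. The other myeloid markers looked at, MPO and ANPEP, differed between lines. MPO means with DMSO were 3.58 (Molm-14), 1.44 (MV4-11) and 317.5 CPM (SKNO-1). ANPEP means were 0.0749, 0.702 and 24.8 CPM in the same order. RUNX1T1, a partner of the t(8;21) fusion known in SKNO-1, had a mean of 13.8 CPM in DMSO-treated SKNO-1 and 0 reads in the other lines with DMSO. POU4F1 and PAX5, often high with t(8;21), were at 0.774 and 0.525 CPM in these SKNO-1 libraries, against 13.2 and 15.8 CPM in Molm-14. HOXA9, HOXA10 and MEIS1 were detected in all lines. With DMSO their means were 53.7, 31.85 and 118.9 CPM in SKNO-1. They were 137.1, 67.5 and 90.7 CPM in Molm-14, and 92.5, 46.5 and 125 CPM in MV4-11.

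Of the 5 transcripts, 4 passed the filter of at least 1 CPM in at least 3 samples: MIR222HG, MIR17HG, MIR155HG and MIR22HG. MIR181A1HG, host of miR-181a and miR-181b, had 0 to 5 reads per library. It had 3, 0 and 0 reads in Molm-14 with DMSO and 3, 3 and 5 with RMC-4550. MV4-11 had 3, 2 and 1 reads with DMSO and 2, 1 and 1 with RMC-4550, and SKNO-1 had 1, 2 and 3 against 2, 0 and 0. A difference was not detectable for it at this depth. MIR181A2HG, by its symbol the host of another miR-181a gene, is not a member but was tested. Its Molm-14 means were 0.657 and 1.47 CPM (log2 change 1.22, limma adjusted p = 0.022), and the groups overlapped. SKNO-1 means were 0.895 and 0.986 CPM (0.15, limma adjusted p = 0.83).

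With DMSO, per kilobase of the longest transcript, MIR155HG was the highest of the 5 in each line, at 9.03 (Molm-14), 14.8 (MV4-11) and 12 CPM per kilobase (SKNO-1). MIR222HG followed at 3.12, 5.58 and 2.62 CPM per kilobase in the same order of lines. MIR22HG (1.53, 1.26 and 0.407) and MIR17HG (1.22, 1.58 and 0.846) were lower, and their order differed between lines. With the mean transcript length in place of the longest, MIR22HG stood at 5.22 CPM per kilobase in Molm-14, above MIR222HG at 3.49.

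MIR222HG, which encodes microRNAs known for acting on KIT and on cell cycle inhibitors, fell with RMC-4550 in Molm-14 and in SKNO-1. In Molm-14 its level was 5.39, 5.48 and 5.57 CPM with DMSO and 0.547, 0.705 and 0.509 CPM with RMC-4550, or 95 to 100 reads against 9 to 11. In SKNO-1 it was 4.43, 4.91 and 4.47 CPM with DMSO and 0.879, 0.974 and 0.552 CPM with RMC-4550. Every treated library lay below every DMSO library of its line, which held for 33.0% of all genes tested in Molm-14 and 35.4% in SKNO-1. The means in Molm-14 were 5.48 ± 0.0906 and 0.587 ± 0.104 CPM (SD, n = 3 each), a 9.34-fold lower level. The log2 change was -3.17 (95% interval -3.73 to -2.62, adjusted p = 1.6e-07), the 9th lowest of 14020 genes tested in Molm-14, of which 25.1% were called lower. The means in SKNO-1 were 4.60 ± 0.266 and 0.802 ± 0.222 CPM (SD, n = 3 each), a 5.74-fold lower level. The log2 change in SKNO-1 was -2.53 (95% interval -3.08 to -1.97, adjusted p = 2.9e-06), the 13th lowest of 14690. Every treated library of both lines was under 1 CPM. MIR222HG thus passed the filter within each line through its DMSO libraries alone, which favours a fall. Its ranks are conditional on that filter and are descriptions. With no filter on low values it was still called in both lines. Of genes tested in both lines, 12.7% were called lower in both.

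In MV4-11, where the set was chosen, MIR222HG was at 11.8, 6.50 and 11.1 CPM with DMSO and at 2.17, 2.02 and 1.32 CPM with RMC-4550. The groups did not overlap, as for 13.5% of genes in MV4-11 with all treated libraries lower. The DMSO mean was 5.34-fold higher, and the log2 difference of -2.38 was the 9th lowest of 14739. The higher DMSO values were the libraries with over 10% mitochondrial reads. Among MV4-11 libraries under 10% (1 DMSO, 2 RMC-4550) the log2 difference was -1.97, and among those over 10% (2 DMSO, 1 RMC-4550) it was -2.39. In Molm-14 without its library of over 10%, the change was -3.31. Over the 12811 genes tested in all 3 lines, 8.7% had all treated below all DMSO libraries in each line.

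The responses of MIR222HG in SKNO-1 and Molm-14 differed by 0.65 on the log2 scale (SKNO-1 minus Molm-14, SE 0.37, 95% interval -0.13 to 1.43), which did not pass the test (adjusted p = 0.287). Of all genes tested for this difference, 10.9% passed. With DMSO the level was highest in MV4-11, then Molm-14, then SKNO-1, and no neighbours in that order overlapped. For all members, the share of genes without such overlap between lines was not counted, so these orders are descriptions. The log2 difference between SKNO-1 and Molm-14 with DMSO was -0.25 (95% interval -0.80 to 0.30, adjusted p = 0.408).

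**Figure D2:**
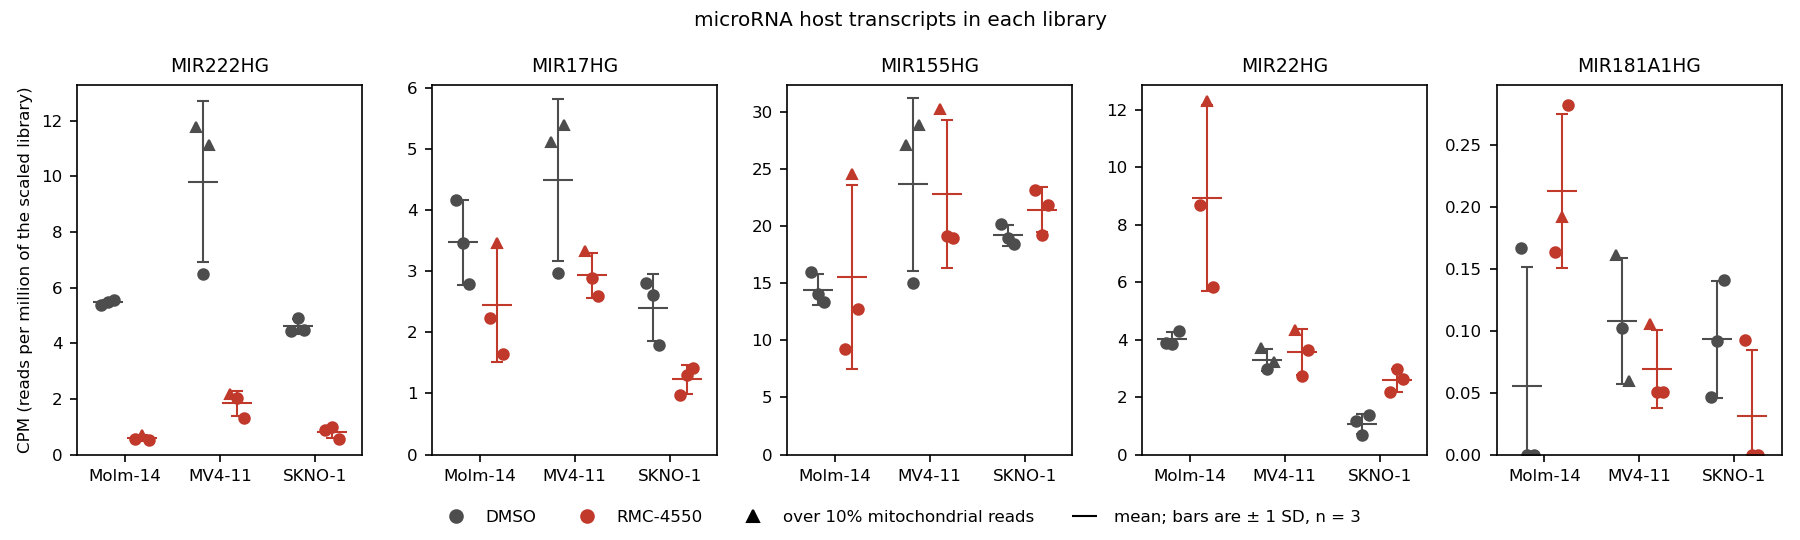
Level of each host transcript in CPM (vertical axis) in the 3 lines (horizontal axis), with 1 point per library, DMSO in grey and RMC-4550 in red, mean and SD of 3 libraries as bars, and libraries with over 10% mitochondrial reads as triangles. All treated libraries lie below all DMSO libraries for MIR222HG in each line, and all lie above for MIR22HG in Molm-14 and SKNO-1.

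The deposited table also has rows for the MIR221 and MIR222 hairpins, which lie in the intron of the shorter MIR222HG transcript. The MIR221 row had 7, 9 and 6 reads in Molm-14 with DMSO and 0, 2 and 0 with RMC-4550. In SKNO-1 it had 9, 5 and 3 reads against 1, 1 and 0, and in MV4-11 it had 18, 13 and 12 against 1, 3 and 3. The row was thus lower in every treated library than in every DMSO library of the same line. Of genes tested in all 3 lines, 8.7% were so in each line. MIR222 had 2, 11 and 2 reads summed over the DMSO libraries of Molm-14, MV4-11 and SKNO-1, and 0, 1 and 0 with RMC-4550. These rows passed no filter and were not tested.

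The promoter of MIR222HG is shown as that of the only member called lower in both Molm-14 and SKNO-1. That of MIR155HG is shown because it is the most abundant member per length and was not called. Each is the RefSeq window (GRCh38.p14) of 250 bases before to 50 after the annotated start, read along the gene's strand, with motif matches in capitals. The RefSeq start of MIR155HG, 25562145, lies inside the GENCODE gene.
MIR222HG, chrX:45770218-45770517, minus strand: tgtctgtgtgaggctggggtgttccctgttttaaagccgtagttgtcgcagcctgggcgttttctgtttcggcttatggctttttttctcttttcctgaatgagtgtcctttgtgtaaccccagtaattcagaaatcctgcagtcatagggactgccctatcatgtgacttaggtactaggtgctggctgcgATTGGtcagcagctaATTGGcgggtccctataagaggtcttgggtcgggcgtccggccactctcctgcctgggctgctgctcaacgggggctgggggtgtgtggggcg
MIR155HG, chr21:25561895-25562194, plus strand: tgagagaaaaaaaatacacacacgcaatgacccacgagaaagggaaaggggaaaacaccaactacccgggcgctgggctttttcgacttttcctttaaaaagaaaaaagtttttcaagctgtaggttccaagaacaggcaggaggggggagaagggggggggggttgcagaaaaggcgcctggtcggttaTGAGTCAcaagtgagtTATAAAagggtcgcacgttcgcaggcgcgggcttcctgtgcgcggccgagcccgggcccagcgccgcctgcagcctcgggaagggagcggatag
Both strands were searched for the letters of the AP-1 motif (TGANTCA), the E-box (CACGTG), the CRE (TGACGTCA), an ETS motif (CCGGAAG), an E2F motif (TTTNGCGC), the CCAAT box and the TATA box (TATAAA). MIR222HG held 2 CCAAT matches, both on the opposite strand and so printed as ATTGG, and none of the others. MIR155HG held 1 AP-1 and 1 TATA match. CCAAT was also found 1 time in MIR17HG, 2 times in MIR22HG and 2 times in MIR181A1HG, and AP-1 was found 1 time in MIR181A1HG. Over 35116 promoters of this length, 34.6% held CCAAT, 7.71% AP-1, 11.5% TATA, 7.26% the E-box, 10.3% the ETS motif, 1.85% the CRE and 1.79% the E2F motif. A match of letters is a description of the window and not a site.

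MIR17HG, host of the miR-17-92 cluster known as a growth-promoting target of MYC and E2F factors, fell in SKNO-1. Its level there was 2.81, 2.62 and 1.79 CPM with DMSO and 0.972, 1.30 and 1.43 CPM with RMC-4550. The groups did not overlap, as for 35.4% of genes tested in SKNO-1 with all treated libraries lower. The log2 change was -0.94 (SE 0.29, 95% interval -1.56 to -0.33, adjusted p = 0.0243), where 16.2% of genes were called lower. The call did not hold without DMSO replicate 1 (-0.82), DMSO replicate 2 (-0.87) or RMC-4550 replicate 1 (-0.79).

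In Molm-14, MIR17HG was at 4.17, 3.46 and 2.79 CPM with DMSO and at 2.24, 3.46 and 1.64 CPM with RMC-4550, and the groups overlapped. The log2 difference of -0.55 (95% interval -1.16 to 0.07) did not pass the test (adjusted p = 0.134). The treated library that reached the DMSO range was replicate 2, with 14.99% mitochondrial reads. Without it the change was -0.83 (adjusted p = 0.031). A fit with that share as a covariate gave -0.82 (adjusted p = 0.0043), and over all other settings that kept every library the adjusted p reached 0.238. In MV4-11 the levels were 5.11, 2.97 and 5.39 CPM with DMSO and 3.33, 2.89 and 2.59 CPM with RMC-4550, which overlapped. The log2 difference there was -0.12 in libraries under 10% mitochondrial reads and -0.65 in those over 10%. The difference of response between SKNO-1 and Molm-14 was -0.40 (95% interval -1.27 to 0.48, adjusted p = 0.585). Levels with DMSO ran from MV4-11 through Molm-14 to SKNO-1, and each overlapped its neighbour.

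**Figure D3:**
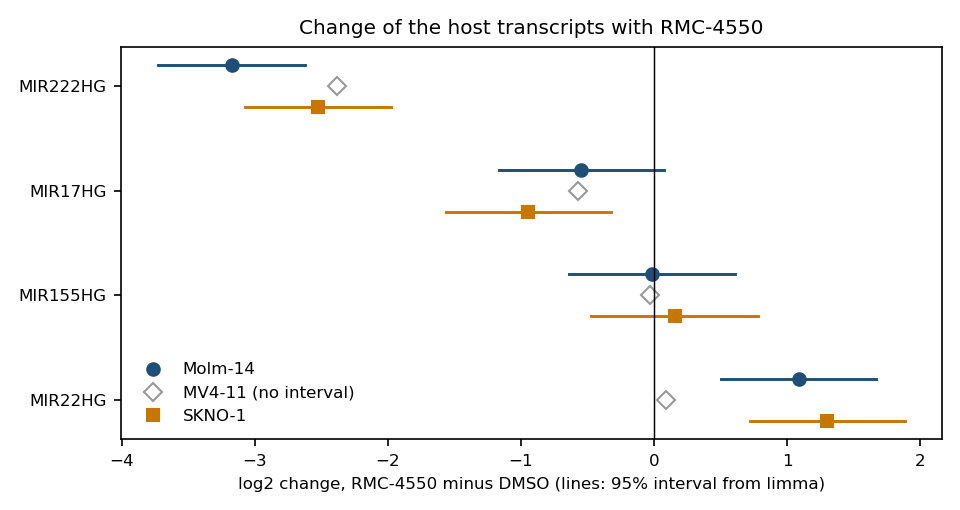
Log2 change of the 4 testable host transcripts (RMC-4550 minus DMSO, horizontal axis), with 95% intervals from limma for Molm-14 and SKNO-1 and open diamonds without interval for MV4-11. The intervals of MIR222HG lie below 0 and those of MIR22HG above 0 in both tested lines, and those of MIR155HG span 0.

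MIR22HG, host of miR-22, a microRNA studied in myeloid leukaemia for its action on TET2, rose in Molm-14 and in SKNO-1. In Molm-14 it was at 3.89, 3.86 and 4.29 CPM with DMSO and at 8.69, 12.3 and 5.83 CPM with RMC-4550. In SKNO-1 it was at 1.15, 0.688 and 1.37 CPM with DMSO and at 2.17, 2.97 and 2.62 CPM with RMC-4550. All treated libraries lay above all DMSO libraries in both lines (26.9% of genes in Molm-14 and 26.6% in SKNO-1), and the highest value in Molm-14 was the library with 14.99% mitochondrial reads. The mean rose 2.23-fold in Molm-14 (log2 change 1.09, 95% interval 0.50 to 1.67, adjusted p = 0.0043), where 21.5% of genes were called higher. It rose 2.42-fold in SKNO-1 (log2 change 1.30, 95% interval 0.72 to 1.88, adjusted p = 0.0022), where 10.8% were called higher, and 7.38% of genes were called higher in both. Without the Molm-14 library of high mitochondrial share the Molm-14 change was 0.82, and it still passed the test.

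In MV4-11, MIR22HG was at 3.71, 2.97 and 3.23 CPM with DMSO and at 4.33, 2.73 and 3.65 CPM with RMC-4550, which overlapped. The response of SKNO-1 minus that of Molm-14 was 0.22 (95% interval -0.61 to 1.04, adjusted p = 0.770). With DMSO the level was lower in SKNO-1 than in Molm-14 by a log2 difference of -1.94 (95% interval -2.52 to -1.36, adjusted p = 1.1e-05), a comparison in which 33.5% of genes were called lower in SKNO-1. No lines overlapped in the order Molm-14, MV4-11, SKNO-1, a description without a share over all genes. An exon of MIR22HG overlaps the annotated span of WDR81, a gene on the opposite strand. Whether it overlaps an exon of WDR81 was not looked at. Whether strand was used in counting is not given in the sources used here, so reads of the pair cannot be told apart. WDR81 rose too, in Molm-14 from a mean of 40.2 CPM to 79.7 (by 0.96 on the log2 scale, adjusted p = 2.4e-04). In SKNO-1 its mean rose from 33.1 CPM to 47.7 (by 0.52, adjusted p = 0.028). In MV4-11 the WDR81 mean was 31.2 CPM with DMSO and 50.3 with RMC-4550 (a log2 difference of 0.68, all treated libraries higher), whereas MIR22HG differed there by 0.09 with overlap. The share of all genes with all treated libraries higher in MV4-11 is not given here, so that is a description. The part of WDR81 reads in the rise of MIR22HG was not tested.

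MIR155HG, host of miR-155, which is known for its roles in inflammation and in blood cancers, was not called in any tested comparison. In Molm-14 it was at 15.9, 14.01 and 13.4 CPM with DMSO and at 9.24, 24.6 and 12.7 CPM with RMC-4550, so the treated libraries lay on either side of the DMSO range. The log2 difference was -0.02 (95% interval -0.64 to 0.61, adjusted p = 0.968). In SKNO-1 it was at 20.2, 19 and 18.4 CPM with DMSO and at 23.1, 19.3 and 21.9 CPM with RMC-4550 (log2 difference 0.15, 95% interval -0.47 to 0.78, adjusted p = 0.750). In MV4-11 it was at 27.1, 15.0 and 28.8 CPM with DMSO and at 30.3, 19.1 and 18.9 CPM with RMC-4550, and the groups overlapped.

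Libraries in which mitochondrial genes took over 10% of reads held the highest MIR155HG values of their groups: 24.6 CPM in Molm-14 with RMC-4550, 27.1 and 28.8 CPM in MV4-11 with DMSO, and 30.3 CPM in treated MV4-11. Below 10%, the MV4-11 level was 15.0 CPM with DMSO and 19.03 CPM with RMC-4550, and among those over 10% it was 28.0 and 30.3 CPM. Without the high library the Molm-14 difference was -0.41, with no call. A fit with that share as a covariate also gave -0.41, which was called (adjusted p = 0.0013), while other settings that kept every library reached an adjusted p of 0.983. That covariate also gave a call to the difference of response between SKNO-1 and Molm-14 (0.52, adjusted p = 0.0068, against 0.17 and an adjusted p of 0.834 without it). With DMSO, SKNO-1 stood above Molm-14 without overlap, again with no share over all genes to set beside it. The log2 difference was 0.41 (95% interval -0.21 to 1.04, adjusted p = 0.232), and the covariate moved this to 0.47 (adjusted p = 1.1e-04). SKNO-1 and MV4-11 overlapped.

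**Figure D4:**
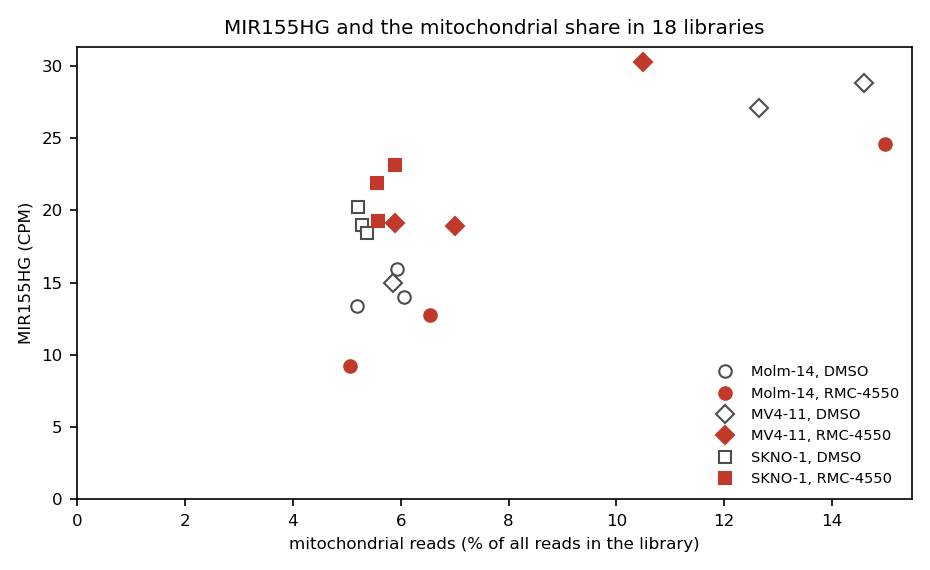
MIR155HG level in CPM (vertical axis) against the percentage of reads in mitochondrial genes (horizontal axis), with 1 point per library, marker shape for the line, open for DMSO and filled for RMC-4550. The 4 libraries above 10% lie between 24.6 and 30.3 CPM, and the other 14 lie between 9.24 and 23.1 CPM.

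Other transcripts of the same kind were taken as all 64 further symbols that start with MIR and end with HG. In Molm-14, 12 of the 22 tested rose and none fell, with a median log2 change of 0.57 against -0.06 over all genes tested, and 10 rose without the library of 14.99% mitochondrial reads. The all-gene median was 0.05 with no filter and -0.12 at a mean of at least 5 CPM. A transcript that passed the filter through its treated libraries alone was favoured to rise. MIR193BHG was such a case, with Molm-14 means of 0.131 and 2.82 CPM. How many of the 12 were such cases was not counted. In SKNO-1, 2 of 21 rose and 2 fell (median 0.13 against -0.05), and 1 fell without SKNO-1 DMSO replicate 1 or 2 or RMC-4550 replicate 1. MIR9-3HG was called higher in both. SKNO-1 means were 9.22 and 15.6 CPM (adjusted p = 3.6e-04), and Molm-14 means were 78.2 and 101 CPM (adjusted p = 0.031, not called without any DMSO library or without RMC-4550 replicate 1 or 3). The shares of these host transcripts called, 54.5% in Molm-14 and 19.05% in SKNO-1, compare with 46.6% and 27.0% of all genes. For each list the background is the same: 21.5% of genes were called higher and 25.1% lower in Molm-14, and 10.8% and 16.2% in SKNO-1.

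Protein-coding genes and transcripts that carry microRNAs in introns moved both ways: 4 of 20 rose and 8 fell in Molm-14 (median -0.25), and 1 rose and 3 fell in SKNO-1 (median -0.12). The shares called were 60% and 20%. Without the Molm-14 library of high mitochondrial share, 2 rose and 5 fell in SKNO-1. MCM7, a replication helicase subunit whose introns hold the miR-106b-25 cluster, a relative of the cluster in MIR17HG, fell in both. Its Molm-14 means were 213.9 and 105.6 CPM (a log2 change of -1.02, adjusted p = 2.0e-06). Its SKNO-1 means were 215.9 and 82.0 CPM (-1.40, adjusted p = 1.5e-07). RCL1 fell in both (-0.90 and -0.48), and SREBF1, a regulator of lipid synthesis, did too (-0.32 and -0.30, the latter not called without RMC-4550 replicates 1 or 3 or DMSO replicates 2 or 3). EVL rose in both, by 0.72 and 0.22, the latter not called without DMSO replicates 1 or 3 or RMC-4550 replicate 3.

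Of the 16 tested genes that process or carry microRNAs, 2 rose and 6 fell in Molm-14 (median -0.09), and none rose and 3 fell in SKNO-1 (median -0.12). The shares called, 50% and 18.8%, stood beside 46.6% and 27.0% of all genes, so the Molm-14 share was near the background and the SKNO-1 share below it. The 3 falls in SKNO-1 compare with 16.2% of all genes called lower. Without the Molm-14 library of high mitochondrial share, 4 fell in Molm-14 and 6 in SKNO-1, and 1 rose in Molm-14 without any of its DMSO libraries or RMC-4550 replicate 1. DGCR8, the partner of DROSHA, fell by 0.55 on the log2 scale (Molm-14, adjusted p = 6.7e-05) and by 0.89 (SKNO-1, adjusted p = 9.5e-07). XPO5, which exports hairpins from the nucleus, fell by 1.13 and 0.78, and its cofactor RAN fell by 0.85 and 0.67.

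Of 19 tested transcription factors known to act on the host genes, 3 rose and 7 fell in Molm-14 (median -0.30), and 1 rose and 5 fell in SKNO-1 (median -0.12). The shares called, 52.6% and 31.6%, were near those of all genes, 46.6% and 27.0%. The gene that rose in SKNO-1 was FOS. E2F1, an activator of MIR17HG, fell from 34.1 to 11.7 CPM (Molm-14) and from 30.8 to 8.50 CPM (SKNO-1), log2 changes of -1.55 and -1.86. E2F2 fell by 1.73 and 2.08, E2F3 by 0.59 and 0.46, and FOSL1, an AP-1 member, by 0.92 and 1.43. The targets below repeat E2F1, E2F2, E2F3, FOS and SPI1, so the lists are not independent.

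Of 6 tested textbook targets of miR-221 and miR-222, CDKN1C, BMF and FOS were called higher in both lines and none was called lower (medians 0.24 in Molm-14 and 0.39 in SKNO-1), a share called of 50% in each. In SKNO-1, 1 was called without DMSO replicate 1 or RMC-4550 replicate 2. In Molm-14, 2 were called lower without RMC-4550 replicate 1, and 1 without MV4-11 DMSO replicate 2. CDKN1C, an inhibitor of the cell cycle, had Molm-14 means of 2.55 and 18.7 CPM (adjusted p = 4.1e-08) and SKNO-1 means of 8.10 and 12.8 CPM (adjusted p = 0.024), both higher with RMC-4550. The SKNO-1 call was lost without DMSO replicates 1 or 2 or RMC-4550 replicates 2 or 3. BMF, a pro-apoptotic BCL2 family gene, rose from 66.8 to 296.1 CPM and from 175.1 to 243.2 CPM. FOS rose by 0.57 and 0.42, the latter not called without DMSO replicate 1 or RMC-4550 replicate 2. CDKN1B did not pass the test, with log2 differences of -0.30 (Molm-14, adjusted p = 0.17) and 0.36 (SKNO-1, adjusted p = 0.15). It was called lower in Molm-14 without RMC-4550 replicate 1 (-0.48). It was called higher in SKNO-1 with the mitochondrial covariate (adjusted p = 2.1e-05), with a separate fit and without Molm-14 RMC-4550 replicate 2 (adjusted p = 0.028). KIT was at 32.3 CPM with DMSO and 39.7 CPM with RMC-4550 in SKNO-1 (0.29, adjusted p = 0.44), and at 0.205 and 1.10 CPM in Molm-14, where it was not tested. Voom weights (adjusted p = 0.024) and a separate fit (adjusted p = 0.0018) called KIT higher in SKNO-1.

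Among targets of the miR-17-92 cluster, none of 8 rose and 4 fell in Molm-14, and 1 rose and 4 fell in SKNO-1 (medians -0.30 and -0.33), and 1 rose in Molm-14 without RMC-4550 replicate 2 and 4 with the mitochondrial covariate. The shares called were 50% in Molm-14 and 62.5% in SKNO-1. The E2F genes above are 3 of the 4 that fell in each line. BCL2L11, the pro-apoptotic BIM, rose in SKNO-1, where its means were 31.8 and 84.7 CPM (log2 change 1.41, adjusted p = 0.0024). In Molm-14 they were 47.4 and 60.3 CPM (0.25, adjusted p = 0.51). The mitochondrial covariate gave a Molm-14 change of 0.67, which was called (adjusted p = 8.1e-07), and other settings that kept every library reached an adjusted p of 0.665.

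Of 7 tested miR-155 targets, 3 rose and 2 fell in Molm-14, and 1 rose in SKNO-1 (medians 0.17 and 0.09). The shares called were 71.4% in Molm-14, against 46.6% of all genes, and 14.3% in SKNO-1, against 27.0% called either way and 10.8% called higher. SOCS1, an inhibitor of cytokine signalling, rose in both, from 6.87 to 21.96 CPM and from 5.52 to 11.6 CPM. SPI1, the myeloid factor PU.1, was at 213.9 and 305.2 CPM in Molm-14 (0.48, adjusted p = 0.045, lost in 11 of 18 fits without a library) and differed by 0.09 in SKNO-1, which did not pass the test (adjusted p = 0.77).

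Of 5 miR-22 targets, MYCBP alone was called (20% in each line), and it fell in both (-0.53 and -0.42), with 2 called lower in Molm-14 without RMC-4550 replicate 1. With the mitochondrial covariate, 2 of these targets were called higher in each line. TET2 did not pass the test, with log2 differences of -0.29 (Molm-14, adjusted p = 0.26) and -0.01 (SKNO-1, adjusted p = 0.98), and was called in Molm-14 without RMC-4550 replicate 1 (-0.50, adjusted p = 0.0496). Of 6 miR-181a targets, 5 fell in Molm-14, and 3 did without RMC-4550 replicate 2 or DMSO replicate 1 or 3. In SKNO-1, 1 rose and 2 fell, and none rose without DMSO replicate 1 or 3 or RMC-4550 replicate 3. The shares called were 83.3% and 50%. PTPN11, which encodes the drug's target SHP2, fell by 1.00 (Molm-14, adjusted p = 0.0013) and by 0.64 (SKNO-1, adjusted p = 0.037), the latter a call lost when any single SKNO-1 library was left out. DUSP6, a phosphatase induced by ERK, fell by 0.62 and 1.30.

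**Figure D5:**
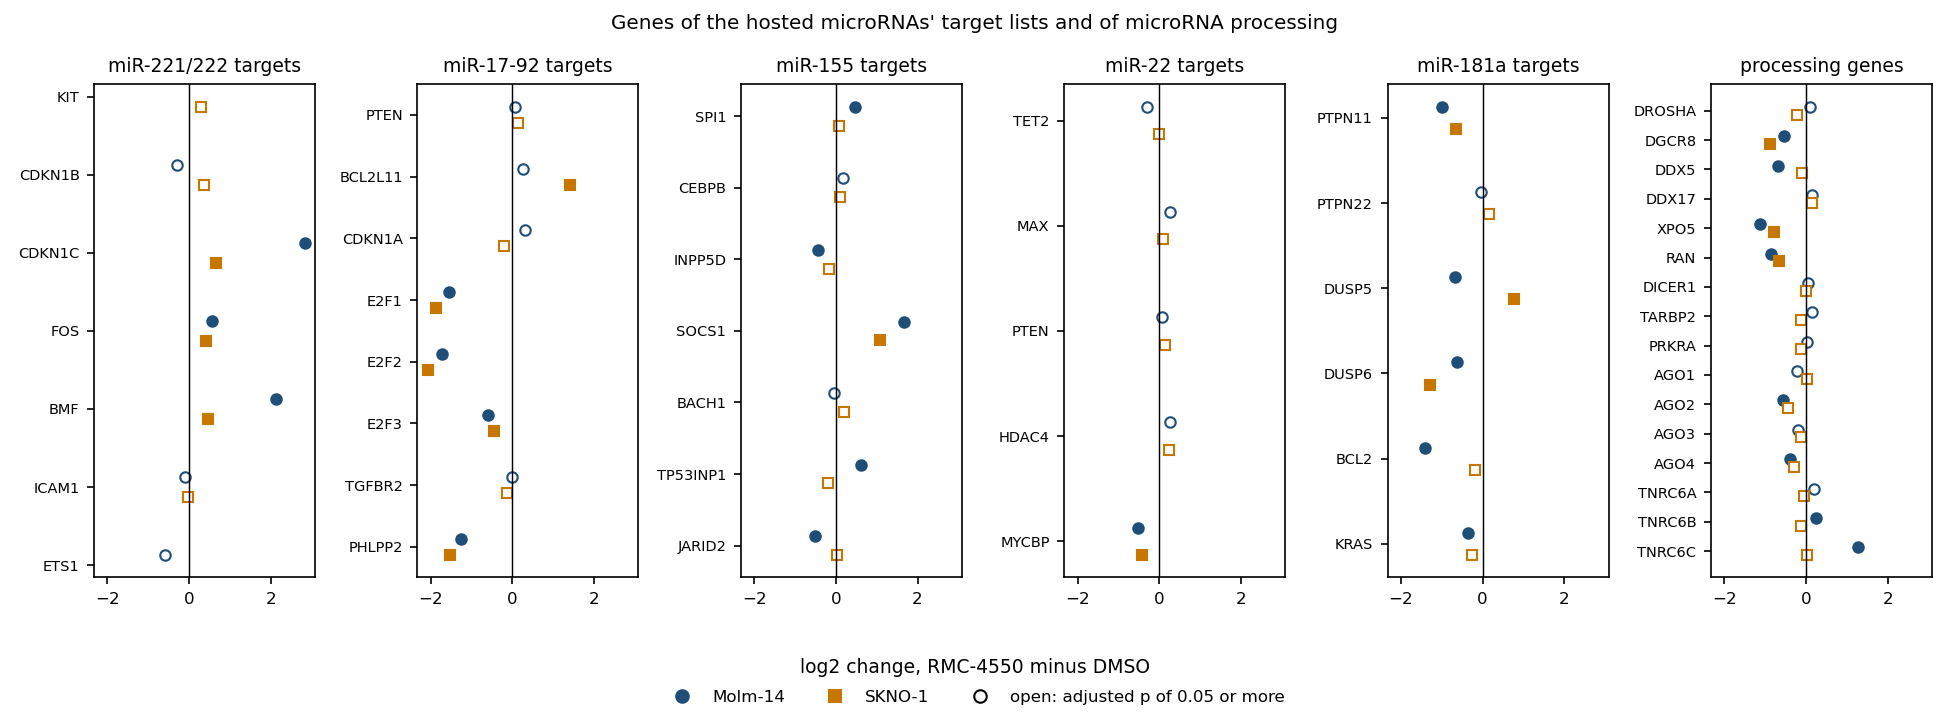
Log2 change (RMC-4550 minus DMSO, horizontal axis) of each tested gene in 6 lists, with Molm-14 as circles and SKNO-1 as squares, filled where the adjusted p was under 0.05; a gene not tested in a line has no marker. CDKN1C, FOS and BMF are filled to the right of 0 in both lines, and E2F1, E2F2 and E2F3 are filled to the left in both.

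The genes most like each host transcript were ranked by Pearson's r of log2 values over the 18 samples, among 11014 genes with a mean of at least 5 CPM. The samples share lines, treatment and mitochondrial share, so these are descriptions. For MIR222HG they were STMN1, which encodes the microtubule regulator stathmin (r = 0.983), RAD51AP1, a recombination factor (0.972), and PLAUR, the urokinase receptor (0.971). After each line's mean was removed, they were RAD51AP1 (0.983), MZT1 (0.983) and STMN1 (0.981). For MIR17HG they were SRSF2, a splicing factor (0.938), LSM7 (0.928) and NME1 (0.922), and after removing line means COL27A1 (0.909), TRMU (0.902) and LPAL2 (0.899). For MIR155HG they were ERICH1 (0.918), PTRH2 (0.916) and MRPL40 (0.913), and after removing line means KRI1 (0.947), DFFA (0.929) and LCAT (0.926). For MIR22HG they were FHDC1 (0.951), LINC00667 (0.945) and HSF4 (0.943), and after removing line means ENSG00000287125, which has no symbol here (0.920), PRUNE2 (0.905) and KCNK6 (0.904).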

How the data were processed

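The authors deposited 1 table of log2 values for 40184 Ensembl gene IDs in 18 libraries. The submitters' processing notes name FastQC, STAR, limma and the build GRCh38. The counter, annotation, filter and use of strand are not given in the sources used here. From the values, each was log2 of reads plus 0.5 in CPM of a scaled library, with scaling factors from 0.890 to 1.11. Undoing this gave whole reads (tolerance 0.02) for 100% of values below 200 reads. CPM was computed from these reads, and symbols matched 40069 IDs. Reads without molecular identifiers are not independent molecules.

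The deposited log2 values were fitted with limma 3.58.1 (lmFit, eBayes with trend) in R 4.3.3, with 1 coefficient per group over 18 samples. P-values were two-sided and Benjamini-Hochberg adjusted over all genes tested, with calls at an adjusted p under 0.05. Genes needed at least 1 CPM in at least 3 samples, overall and within the line tested. The fit was tested on simulated data.

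The members, the gene lists and the filter were chosen with earlier results of these data known. The genes named were the members, PTPN11, up to 4 genes per list called in the same direction in Molm-14 and SKNO-1 with a mean of at least 5 CPM, the targets KIT, DUSP6, SPI1, TET2, BCL2L11 and CDKN1B, and the 3 genes most like each member. WDR81, MIR181A2HG, the MIR221 and MIR222 rows and the marker genes were added because they overlap a member, share a microRNA name with one or check a label. Alternatives were other pseudocounts, filters, scaling and variance models, a separate fit per line, voom weights on recovered reads, a replicate block, the mitochondrial share (15 genes) as a covariate, mean transcript length, Spearman's rho and leaving out each library. Plots used Python 3.11.15 and matplotlib 3.10.9.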

Additional observations from a re-analysis of the deposited data

Results flagged for a closer look

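The response of BMF, a target of miR-221 and miR-222, differed between lines by -1.664 on the log2 scale (SKNO-1 minus Molm-14, limma adjusted p = 9.9e-06), with log2 changes of 0.47 in SKNO-1 and 2.14 in Molm-14. CDKN1C, of the same target list, differed by -2.187 (limma adjusted p = 1.4e-04), with changes of 0.65 and 2.84. EVL, a host of an intronic microRNA, differed by -0.4936 (limma adjusted p = 0.0027), with changes of 0.22 and 0.72. In each case all treated libraries lay above all DMSO libraries in both lines, which held for 26.9% of genes in Molm-14 and 26.6% in SKNO-1. The difference was called without each library in turn.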

How the results depend on the processing

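Of 552 values of the members under alternatives, 524 were counted as unchanged. For tested values this meant the same direction and call. For MV4-11 differences and levels per length it meant only a shift smaller than the SD of the libraries. The count includes values that stayed uncalled and fits without a library of a line outside the comparison, so it is not a measure of stability. MIR222HG stayed called under every alternative that could test it, with log2 changes from -3.381 to -2.032 in Molm-14 and from -2.552 to -1.644 in SKNO-1, and MIR22HG did too. In MV4-11 the difference of MIR222HG was -1.903 on the log2(CPM + 1) scale. The mitochondrial share as a covariate gave calls to MIR17HG in Molm-14 (-0.8246), to its DMSO level difference (-0.4943), and to MIR155HG in Molm-14 (-0.4149), in the difference of response (0.5191) and in DMSO level (0.4696). Signs turned for values that did not pass the test: MIR155HG in Molm-14 with median-ratio scaling (0.03175), the MIR22HG difference of response with log2(CPM + 1) (-0.1329), and TET2 in SKNO-1 (0.05422 with median-ratio scaling, 0.02403 with the covariate, and -0.0438 to 0.05754 over fits without a library). Signs also turned in MV4-11, where no test was made. MIR155HG differences there ran from -0.03237 to 0.3792 over settings that kept every library. They ran from -0.3321 to 0.1398 over fits without a library, and those of MIR22HG from -0.05807 to 0.2715. The causes were not tested. The filter of a mean of at least 5 CPM left MIR155HG alone among the members.

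Leaving out each library gave log2 changes for MIR222HG from -3.31 to -3.082 in Molm-14, from -2.682 to -2.285 in SKNO-1 and from -2.656 to -2.165 in MV4-11. MIR17HG ranged from -0.8278 to -0.2953 in Molm-14 and from -1.142 to -0.7856 in SKNO-1, and MIR22HG from 0.8231 to 1.361 and from 1.019 to 1.502. MIR155HG ranged from -0.4088 to 0.2965 in Molm-14 and its difference of response from -0.1421 to 0.5631, and that of MIR22HG ranged from -0.06663 to 0.4777.

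With mean transcript length, levels with DMSO in CPM per kilobase were 3.494 (Molm-14) and 2.935 (SKNO-1) for MIR222HG, 1.793, 2.318 and 1.243 (Molm-14, MV4-11, SKNO-1) for MIR17HG, 5.218, 4.294 and 1.39 for MIR22HG, and 0.07741 and 0.06679 (MV4-11, SKNO-1) for MIR181A1HG.

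With the replicate block, log2 changes of MIR222HG were -3.174 and -2.526, and no member's call changed. The labels do not state that the numbers pair the samples. In deviations from group means, same-numbered libraries correlated at -0.052, -0.041 and 0.003 in Molm-14. The values were 0.393, 0.589 and -0.399 in MV4-11, and 0.128, 0.014 and 0.038 in SKNO-1. Differently numbered MV4-11 libraries ran from -0.718 to 0.64. With 3 libraries per group, these values cannot decide whether the numbers pair the samples. The block moved calls over all genes from 6534 to 6111, from 2045 to 1734 and from 3969 to 3602, and ended those of PTPN11 in SKNO-1 (-0.6405) and SPI1 in Molm-14 (0.4784). Separate fits per line called 5259, 668 and 8199 genes in the same order of lines, and the covariate 8039, 5054 and 7271. List counts moved with them. In SKNO-1, 9 intronic hosts fell in either setting (against 3), 5 other host transcripts (against 2), 6 processing genes (against 3), and 9 factors with the separate fit or 8 with the covariate (against 5). With the covariate in Molm-14, 7 factors (against 3), 5 processing genes (against 2), 4 targets of miR-17-92 (against 0) and 2 of miR-22 (against 0) rose. With the separate fit in SKNO-1, 6 other host transcripts (against 2) and 5 targets of miR-221 and miR-222 (against 3) rose, and 4 of miR-181a fell (against 2). Spearman's rho in place of Pearson's r shared 0 or 1 of the 3 most similar genes for each member.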
